A study of Mus musculus with 6 samples.

Results

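The sarcomeric myosin heavy chains are the motor proteins of the thick filament, and which of them a muscle fibre makes largely sets its contraction speed. The 9 mouse genes analysed were Myh1, Myh2, Myh3, Myh4, Myh8 and Myh13, which lie side by side on chromosome 11, Myh6 and Myh7, which lie next to each other on chromosome 14, and Myh7b on chromosome 2. They were 9 of 21887 protein-coding genes in the RefSeq table, and for each locus the rule took every peak in the gene and on to the nearest H3K4me3 peak on either side. The members were chosen by family and by their missing H3K4me3 peaks in the Ctrl list, and H3K4me3 peaks also set the borders, so the H3K4me3 values below are a description with no test.

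Histone marks had been mapped by CUT&RUN, in which a nuclease tethered to an antibody cuts out the DNA around marked nucleosomes, in gastrocnemius muscle of male C57BL/6 mice aged 4 weeks. Ctrl mice were Phf2 flox/flox;Acta1 Cre- and CKO mice Phf2 flox/flox;Acta1 Cre+, so that both carried floxed Phf2 and CKO mice also carried Cre from the promoter of Acta1, the actin of skeletal muscle fibres. The study examined PHF2, a JmjC protein described as removing the repressive mark H3K9me2 and as binding H3K4me3, the mark of active promoters. The 6 peak lists, from 1 library each, were H3K4me3 in Ctrl (16573 peaks; titled wild type, with the Ctrl genotype), H3K9me2 in Ctrl (3703) and in CKO (12832), inputs 1 and 2 in Ctrl (3071 and 1309) and the input in CKO (10931). Each genotype has a single H3K9me2 library, so the genotypes are set side by side without a test or a replicate check. The labels do not say whether the libraries came from separate or pooled animals.

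Myosin genes of muscle are switched in sequence. Myh3 encodes the embryonic and Myh8 the perinatal chain, which are replaced after birth by the adult fast chains of Myh2 (IIa), Myh1 (IIx) and Myh4 (IIb), the last being the chain of the fastest fibres and abundant in mouse gastrocnemius. Myh13 encodes the extraocular chain, Myh7 the slow chain, shared with heart ventricle, and Myh6 the alpha chain of heart. Myh7b is an ancient member of the family whose intron holds the microRNA miR-499, as the introns of Myh6 and Myh7 hold miR-208a and miR-208b. Fast skeletal fibres, slow fibres, vessels, nerve and connective tissue are all present in whole muscle, and a peak list does not tell in which of them a mark lay. For the same reason a mark in few cells and a weak mark in many cells cannot be told apart.

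The promoters of Myh2, Myh1, Myh4 and Myh8 are shown because they are the members alike in sequence, and because none of them carried a peak in any list. Each line gives the 250 bases before the RefSeq start (GRCm38.p6, plus strand, 5′ to 3′), at chr11:67170777-67171026 for Myh2, chr11:67199852-67200101 for Myh1, chr11:67237562-67237811 for Myh4 and chr11:67276874-67277123 for Myh8. Capitals mark the run of 14 bases that these 4 promoters have in common, matches to the MEF2 motif, which binds the MEF2 muscle factors, and TATAAA, the core of the TATA box. The promoter of Sco1, a copper chaperone of cytochrome oxidase, stands for contrast (chr11:67052420-67052669). It is covered by the H3K4me3 peak that borders the cluster, and its capitals mark each CG dinucleotide.
Myh2: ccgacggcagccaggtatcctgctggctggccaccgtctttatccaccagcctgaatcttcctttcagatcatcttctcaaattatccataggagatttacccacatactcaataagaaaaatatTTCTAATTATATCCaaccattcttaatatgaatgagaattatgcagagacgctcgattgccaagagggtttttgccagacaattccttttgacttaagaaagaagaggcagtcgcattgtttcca
Myh1: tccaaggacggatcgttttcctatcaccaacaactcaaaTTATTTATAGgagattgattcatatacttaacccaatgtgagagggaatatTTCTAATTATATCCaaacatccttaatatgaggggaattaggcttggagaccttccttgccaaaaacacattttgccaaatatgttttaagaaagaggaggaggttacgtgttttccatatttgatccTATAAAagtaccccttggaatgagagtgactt
Myh4: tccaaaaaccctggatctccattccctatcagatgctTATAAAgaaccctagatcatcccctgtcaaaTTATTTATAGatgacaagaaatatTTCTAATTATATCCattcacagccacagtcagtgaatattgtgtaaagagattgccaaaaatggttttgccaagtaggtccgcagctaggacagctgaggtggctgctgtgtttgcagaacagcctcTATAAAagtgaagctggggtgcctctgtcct
Myh8: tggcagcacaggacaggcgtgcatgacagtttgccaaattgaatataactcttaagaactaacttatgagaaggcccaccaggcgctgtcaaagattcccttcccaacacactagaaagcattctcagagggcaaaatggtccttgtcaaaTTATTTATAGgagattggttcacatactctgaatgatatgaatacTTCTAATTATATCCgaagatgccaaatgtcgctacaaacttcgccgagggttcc
Sco1: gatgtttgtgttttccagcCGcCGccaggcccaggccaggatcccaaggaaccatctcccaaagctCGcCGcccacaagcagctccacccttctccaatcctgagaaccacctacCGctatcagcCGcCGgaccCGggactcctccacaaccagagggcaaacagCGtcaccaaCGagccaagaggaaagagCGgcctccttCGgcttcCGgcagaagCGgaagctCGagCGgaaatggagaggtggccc

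The common run, TTCTAATTATATCC, began 125 bases before the start in Myh2, 160 in Myh1, 158 in Myh4 and 54 in Myh8. Read on both strands, it was found in 4 of the 17492 protein-coding promoter windows of 300 bases (250 before to 50 after the start), and those were these 4. A MEF2 match, TTATTTATAG each time, lay 211, 182 and 99 bases before the start in Myh1, Myh4 and Myh8. The MEF2 motif matched in 3 of the 9 member windows, where 2.94% of all windows held it. These matches lie in runs that Myh1 and Myh8 (22 bases) and Myh4 and Myh8 (17 bases) share. They are therefore not separate observations. TATAAA, on either strand, was in 6 of 9 (Myh1, Myh2, Myh3, Myh4, Myh6 and Myh8) against 13.3% of all windows. In Myh1, Myh4 and Myh8 a copy on the opposite strand lies wholly inside the MEF2 match, and Myh8 has no other copy of TATAAA. On the gene's own strand it lay 29, 32 and 31 bases before the start in Myh3, Myh1 and Myh4, with another copy 213 bases before the start in Myh4, and 11 and 2 bases after the RefSeq start in Myh2 and Myh6. CATTCC, the core of the site of TEAD factors, was in 4 of 9 against 13.5%, the E-box CANNTG, bound by MyoD and its relatives, in 7 of 9 against 68.8%, and the CArG box of SRF in 2 of 9 against 1.55%. A match is a match of letters and not a bound site.

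The member promoters also had few CG dinucleotides. Myh4 had 1 in its 300-base window, Myh6 had 2, Myh1 and Myh13 had 3, Myh3 and Myh7b had 4, Myh7 had 5, Myh8 had 6 and Myh2 had 9. The median over all 17492 windows was 13, and it was 22 where an H3K4me3 peak lay within 2 kb of the start and 3 where none did. Sco1 had 21 and Adprm, which starts back to back with it, had 28. Among the genes with at most 9 CG dinucleotides, 42.8% of all, 16.2% had H3K4me3 within 2 kb of the start. The members' 0 of 9 stands beside that share as a description, and the part of CG content in it was not tested.

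**Figure D1:**
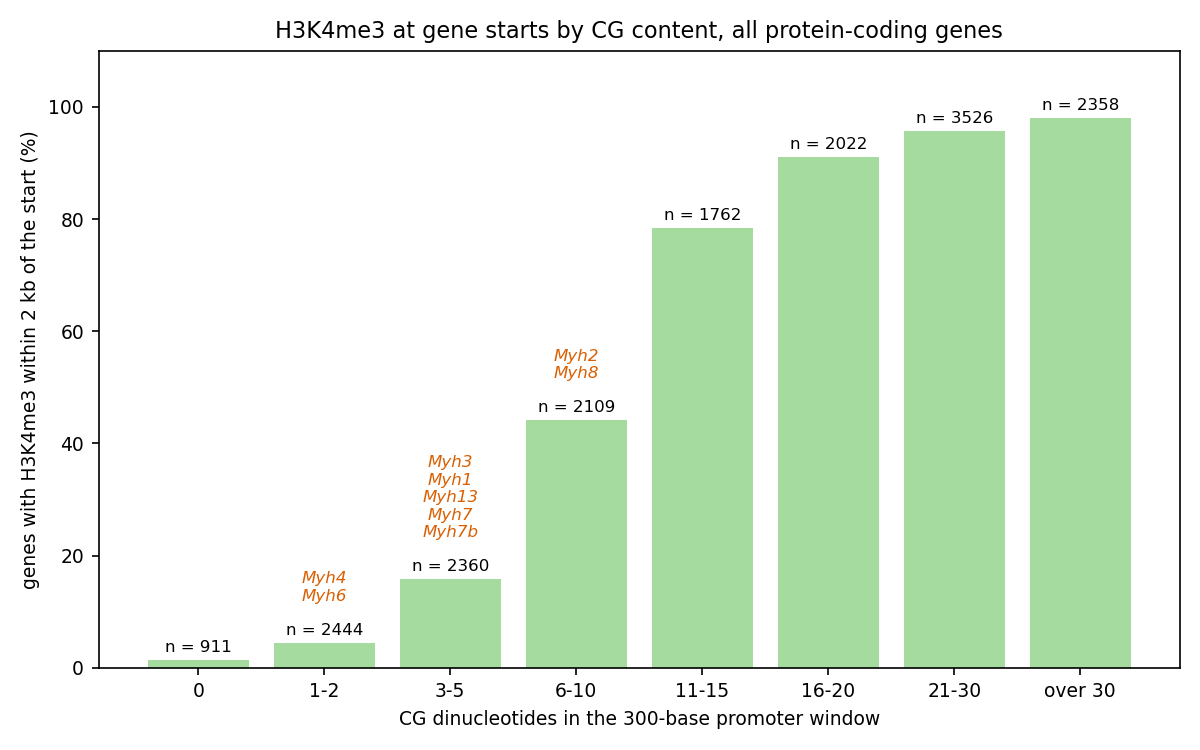
Share of protein-coding genes with an H3K4me3 peak within 2 kb of the RefSeq start in Ctrl muscle (vertical axis, percent), by the number of CG dinucleotides in the 300-base promoter window (horizontal axis), with the number of genes above each bar and the members of each class named in orange. The share is 4.42% at 1 to 2, 15.8% at 3 to 5 and 44.1% at 6 to 10, the classes that hold the members, and 98% above 30.

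The whole skeletal cluster was free of peaks. From the end of the peak over Sco1 and Adprm to the peak in Gas7, chr11:67053060-67454840 in mm10, a stretch of 401.8 kb, no peak of any of the 6 lists was called. It holds, wholly inside, Myh3 (Gene ID 17883, 67078273 to 67102291), Myh2 (17882, 67171027 to 67197517), Myh1 (17879, 67200102 to 67224577), Myh4 (17884, 67237812 to 67260447), Myh8 (17885, 67277124 to 67308634) and Myh13 (544791, 67327103 to 67371587), all on the plus strand. It also holds 7 RefSeq entries that code for no protein, among them the long noncoding RNAs 2310065F04Rik in the 68.7 kb between Myh3 and Myh2, and Myhas in the 13.2 kb between Myh1 and Myh4. None of the 7 had a peak within 2 kb. The body of Sco1 and an end of Gas7 reach into the stretch from either side.

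The bordering peaks were well filled. The one over Sco1 and Adprm (67052207 to 67053059) had a fold of 16.3, the authors' ratio of the summit to the local background, and 103 fragments at the summit. The one in Gas7 (67454841 to 67455977), 1.58 kb in from the gene's end that faces the cluster, had a fold of 10.8 and 46 fragments, and a CKO input peak overlapped it. Between these peaks lay 6 protein-coding genes without H3K4me3, while across the genome 220 H3K4me3-free stretches held 6 or more.

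Among H3K4me3-free stretches, whose median length was 48.7 kb, 7.99% of 16552 were at least as long as this one. Counted by gene, 24.8% of protein-coding genes had their midpoint in a stretch at least as long. Of fixed windows of this length across the genome, 38.4% had no H3K4me3 peak. The other 5 lists played no part in setting the borders of the myosin stretch and are set beside stretches of like kind. The members and comparisons were chosen with earlier results of these data known, so the shares that follow are a description too. Of 682 H3K4me3-free stretches of 301 to 502 kb that touched a protein-coding gene, 80 (11.7%) had no peak of the other 5 lists, where the mean was 3.5 peaks. Of the 37 with 6 or more protein-coding genes wholly inside, 3 (8.11%) had none. Those 3 held the myosin cluster, the Nat8 acetyltransferase genes on chromosome 6 and the H2al1 histone genes on chromosome X. Families of related genes also lay in stretches among the 37 that were not empty, such as those with Cyp4a or Klk genes. An empty stretch of this kind was uncommon but not singular.

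**Figure D2:**
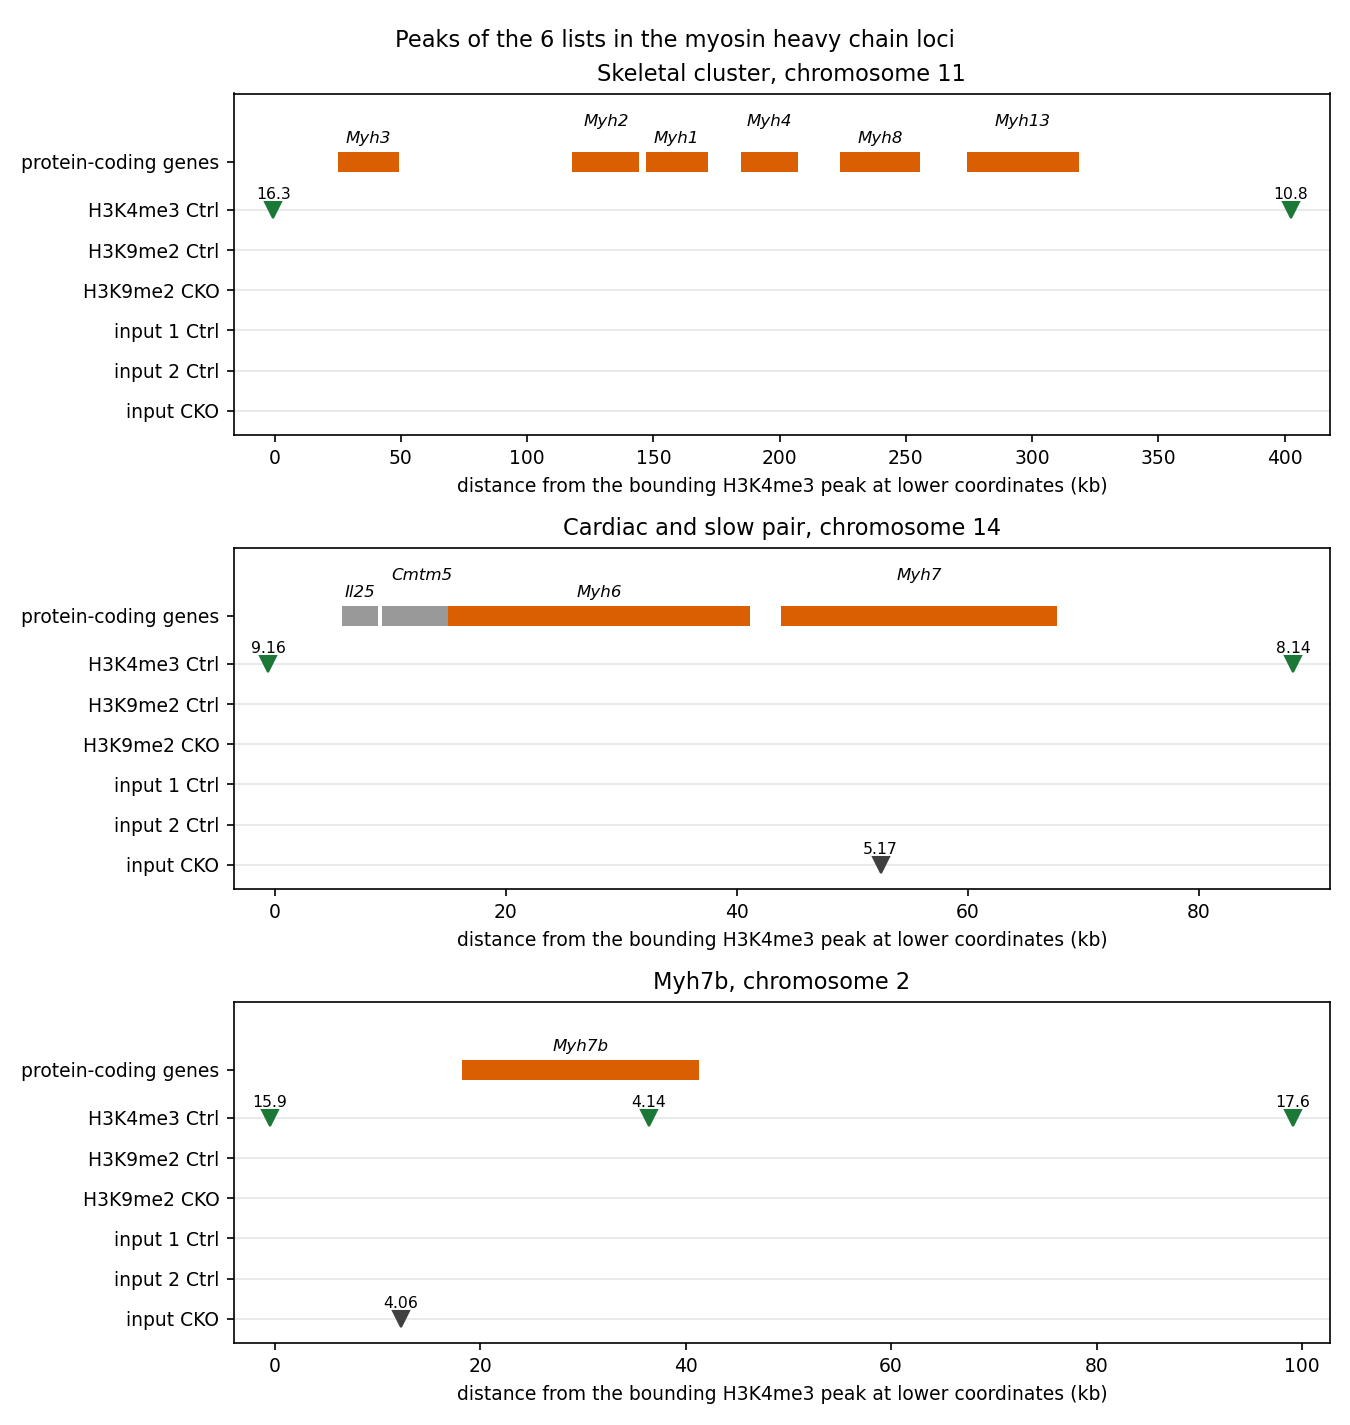
Protein-coding genes lying wholly inside each locus (bars; members in orange) and peaks of the 6 lists (triangles, with the fold written above) in the 3 myosin loci, against the distance in kb from the H3K4me3 peak that borders the locus at lower coordinates. The chromosome 11 cluster has no triangle between its 2 border peaks, the chromosome 14 pair has 1, in the CKO input within Myh7, and the Myh7b locus has 2, H3K4me3 in the gene and CKO input before it.

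No member started inside an H3K4me3 peak, which follows from how they were chosen, while 51.2% of genes with a RefSeq start did. The distance from a start to the nearest H3K4me3 peak is given as a description. By this distance the order was Myh7b (18 kb), Myh7 (20.1 kb), Myh3 (25.2 kb), Myh6 (39.7 kb), Myh2 (118 kb), Myh13 (128 kb), Myh1 (147 kb), Myh8 (178 kb) and Myh4 (185 kb). The adult IIb gene Myh4 was thus the farthest of the 9. Of genes with a RefSeq start, 13.7% lay at least as far as Myh4 and 32.7% at least as far as Myh7b. The 6 cluster members share their border peaks, so their distances follow from their places in the cluster and are not separate observations.

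**Figure D3:**
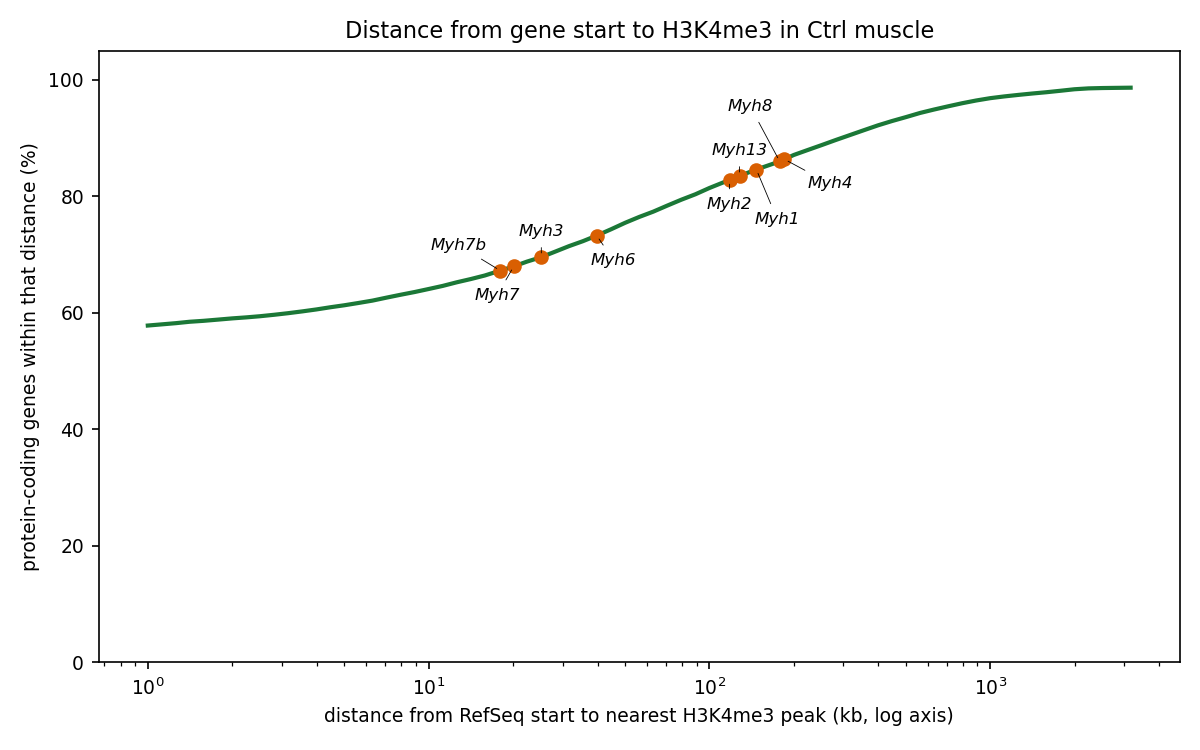
Cumulative share of protein-coding genes (vertical axis, percent) whose RefSeq start lies within a given distance of the nearest H3K4me3 peak in Ctrl muscle (horizontal axis, kb, log scale), with the 9 members marked. Myh7b, Myh7, Myh3 and Myh6 lie between 18 and 39.7 kb and the other 5 between 118 and 185 kb.

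H3K4me3 was called within 2 kb of a gene end at 0 of 9 members, against 59.5% of all protein-coding genes and 68% of the 3838 genes as long as the members (22.6 to 44.5 kb). With peaks of q 1e-05 or less the count was 0 of 9 against 57.7%. Around the RefSeq start it was 0 of 9 against 59.1%. With the gene body included it was 1 of 9, Myh7b, against 63.8% of all genes and 73.6% of those of like length. Because the genes were proposed with this known, nothing is read from the difference. A missing peak has its own limit. The lowest summit in the H3K4me3 list held 4 fragments. It held 6 where the local background was 1 to 3 fragments and 12 where that was 3 to 5. The local background had a median of 4.45 over marked protein-coding genes and was 1.18 at the peak in Myh7b. It is not known at members without a peak. A weak mark spread over a gene could therefore be present without a call. The sources used here do not say how reads that fit more than 1 of these similar genes were treated.

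Myh6 and Myh7 share a stretch of 87.81 kb without H3K4me3, chr14:54926882-55014693. Both are on the minus strand, Myh6 (Gene ID 17888) at 54941921 to 54968017 and Myh7 (140781) at 54970684 to 54994626, with 2.67 kb between them. The border peaks were at Efs, an adaptor of Src kinases (54925745 to 54926881, fold 9.16, 57 fragments), and 77 bases before the start of Ngdn, a ribosome biogenesis gene (55014694 to 55015377, fold 8.14, 24 fragments). Il25 and Cmtm5 lie in the same stretch. Of 16552 H3K4me3-free stretches, 33.4% were at least as long, so this one was of ordinary length.

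A CKO input peak was called within Myh7, and it was the sole peak in the pair (54979153 to 54979513, fold 5.17, 10 fragments, −log10 q of 3.87). It lay 15.1 kb downstream of the Myh7 start, 8.47 kb inside the nearer gene end and 3.38 kb from the hairpin of miR-208b, within the long noncoding RNA Gm31251 as well. No other list had a peak there. An input peak is not a peak of a histone mark. Of like H3K4me3-free stretches of 65.9 to 110 kb, 73.9% had no CKO input peak and 63.9% had none of the 5 other lists.

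Myh7b was the member with an H3K4me3 peak in the gene. Myh7b (Gene ID 668940, plus strand, 155611243 to 155634307 on chromosome 2) carried it at 155629289 to 155629607, 18 kb downstream of the start and 4.7 kb before the end. The peak had a fold of 4.14, 8 fragments at the summit and a −log10 q of 3, well below the border peaks at Gss, glutathione synthetase (155592133 to 155593000, fold 15.9, 79 fragments), and at the start of Trpc4ap (155691736 to 155692393, fold 17.6, 99 fragments). It lay 6.33 kb from the hairpin of miR-499, and no other list had a peak over it. At a q of 1e-05 or less it was no longer counted. A CKO input peak lay 5.8 kb upstream of the Myh7b start (155605150 to 155605441, fold 4.06, 6 fragments), and no peak lay at the start itself.

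H3K9me2 was called at no member in either genotype. In Ctrl 0 of 9 members had an H3K9me2 peak in the gene or within 2 kb, where 5.16% of all protein-coding genes and 4.53% of those of like length did. In CKO 0 of 9 did, where 15.4% of all and 15.3% of like length did. Counts of 0 among 9 genes are near both backgrounds. Within the 3 loci, 588.3 kb in all, neither genotype had an H3K9me2 peak (0 and 0). The lowest summits listed held 4 fragments in Ctrl and 5 in CKO. The lowest local background solved at a listed peak was 0.391 fragments in Ctrl and 0.544 in CKO. A higher local background can ask for more fragments, as in the H3K4me3 list. The listed peaks were narrow, with median widths of 388 bp in Ctrl and 389 bp in CKO. H3K9me2 that was weak or spread out could therefore be present without a call.

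The nearest H3K9me2 peaks lay outside the loci. In CKO the one nearest to Myh3 was 121 kb away (66957399 to 66957737, fold 4.49, 9 fragments), on the far side of Sco1, and in Ctrl 617 kb away (66460830 to 66461329, fold 4.61, 7 fragments). The same peaks were the nearest to Myh4, at 280 kb in CKO and 776 kb in Ctrl. For Myh7 the distances were 239 kb in CKO and 797 kb in Ctrl, and for Myh7b 537 kb and 2502 kb. Over all protein-coding genes the medians were 95.7 kb in CKO and 394 kb in Ctrl, and each member lay farther than these. The 6 cluster members share their nearest Ctrl peak, and Myh6 and Myh7 share theirs in both lists, so these are not separate observations. The shorter distances in CKO are those of a longer list. Of all genes, 10.9% in CKO and 4.89% in Ctrl lay at least as far as Myh7b, the farthest member in both. For Myh3, the nearest member in both, the shares were 44.7% in CKO and 36.9% in Ctrl.

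**Figure D4:**
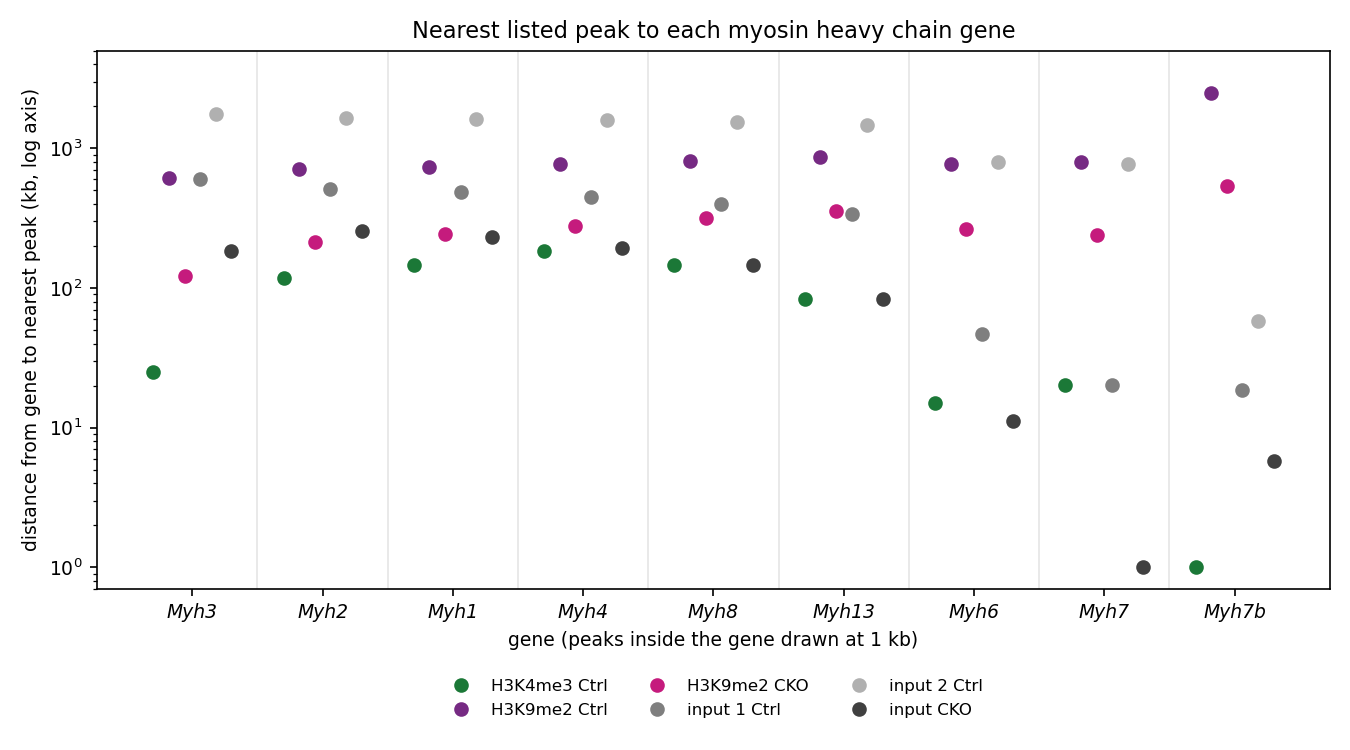
Distance in kb (vertical axis, log scale) from each member (horizontal axis) to the nearest peak of each list, 1 point a list, with peaks inside the gene drawn at 1 kb. Every H3K9me2 point lies at 121 kb or more, while H3K4me3 lies inside Myh7b and CKO input inside Myh7.

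The surroundings differed between the loci. In the 500 kb on either side of the chromosome 11 stretch, borders included, the H3K4me3 list had 3 and 3 peaks, CKO H3K9me2 had 2 and 1, and Ctrl H3K9me2 had none. Around the chromosome 14 pair H3K4me3 had 20 and 7 and CKO H3K9me2 1 and 3, and around Myh7b H3K4me3 had 8 and 14 and neither H3K9me2 list had any. The 6 H3K4me3 peaks beside the skeletal cluster are near the genome's 6.23 per Mb and below the 11.2 per Mb of chromosome 11, and the other 2 loci were more densely flanked.

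Few input peaks were called at the members. In the gene or within 2 kb, Ctrl input 1 had a peak at 0 of 9 (9.59% of all genes, 11.4% of those of like length), Ctrl input 2 at 0 of 9 (4.32% and 4.82%) and the CKO input at 1 of 9, Myh7 (33.2% and 39.7%). In all, 7 of 9 members had no peak of the 6 lists in the gene or within 2 kb, as had 29.9% of all protein-coding genes and 19.7% of those of like length. This count includes H3K4me3, on which the genes were proposed. The input counts are not independent of that choice, since 10418 of 16573 H3K4me3 peaks had no input peak and the rest did. The shares of all genes also include genes with H3K4me3. Among the H3K4me3-free stretches of 301 to 502 kb that touched a protein-coding gene, 40.5% had no CKO input peak.

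Other genes of the contractile apparatus varied from list to list in H3K4me3 at gene ends, where 59.5% of all protein-coding genes had it. These counts are a description without a test. Of 10 fast-fibre genes 9 had a peak, led by Pvalb, the calcium buffer parvalbumin (fold 8.71, 36 fragments), Actn3, the fast alpha-actinin (8.70, 47 fragments), and Mylpf, the fast regulatory light chain (7.62, 78 fragments). The exception by gene ends was Myl1, an essential light chain, whose RefSeq start lay inside an H3K4me3 peak. The fast genes are partners of Myh1, Myh2 and Myh4 in the same fibres, and their promoters were poor in CG as well. All 7 with a window had at most 9 CG dinucleotides, and 5 of these had H3K4me3 within 2 kb of the start. Tnnc2 and Mylpf did not, their starts lying 2.48 and 2.92 kb from the nearest peak. Slow-fibre genes had 2 of 10, Tnnc1, slow troponin C (15.9), and Atp2a2, the slow calcium pump (6.88), and their 9 windows also had at most 9 CG dinucleotides, with 1 marked at the start.

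Proteins that fold or bind myosin had 6 of 10, a share like that of all protein-coding genes (59.5%). They were led by Hsp90aa1, a chaperone (fold 13.1), Myom1, the M-band protein myomesin (11.2), and Mybpc2, the fast myosin-binding protein C (5.92). Unc45b, the chaperone dedicated to muscle myosin, had 3.91 and Smyd1, a myosin-associated methyltransferase, 4.27. Light chains and their kinases had 2 of 8, Myl6b (12.9) and Mylpf. Myl1 and Myl4 had none at an end but a RefSeq start inside an H3K4me3 peak. Within 2 kb of the start the count was 3 of 7, Myl6b, Myl1 and Myl4, and Mylpf was not among them (2.92 kb). Regulators of fibre type had 12 of 15, led by Eya1, a transcriptional cofactor (16.7), Tead1 (13.5) and Vgll2, a TEAD cofactor (10.9). Sox6, a repressor of slow genes, had a fold of 9.72. Mef2a, Mef2c and Hdac4 had none at an end, though the RefSeq starts of Mef2a and Hdac4 lay inside H3K4me3 peaks.

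Of the 5 other myosin heavy chain genes, 3 had H3K4me3 at an end, again a share like the 59.5% of all protein-coding genes. They were the nonmuscle genes Myh9 (fold 6.62, 77 fragments), Myh10 (9.65, 80 fragments) and Myh14 (7.94, 17 fragments), with 19, 18 and 18 CG dinucleotides in their promoter windows. Myh11, the smooth muscle chain, had none, and neither did Myh15, which had 0 CG dinucleotides and lay 63 kb from H3K4me3. Myh11 was also the gene of these 5 with a CKO H3K9me2 peak in the gene or within 2 kb.

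Marker lists were read beside the tissue label. Skeletal muscle identity genes had 6 of 10 with H3K4me3 at an end, led by Myod1 (8.95), Des (8.81) and Myog (7.91), while Acta1, Ckm, Ttn and Neb had none. Satellite cell markers had 5 of 6, endothelium 3 of 6, cardiac 2 of 9, smooth muscle 2 of 6, blood and immune 2 of 6 and fibroadipogenic markers 0 of 6. Within 2 kb of the RefSeq start, where one was known, skeletal genes had 4 of 7, satellite cells 5 of 6 and endothelium 3 of 4. Cardiac genes then had 2 of 7, smooth muscle 1 of 3, blood and immune 0 of 6 and fibroadipogenic markers 0 of 3. Pdgfra of the last list had an H3K4me3 peak in the gene or within 2 kb. The skeletal count at gene ends is a share like the 59.5% of all protein-coding genes, so these counts do not check the label. Phf2 itself carried H3K4me3 in Ctrl (fold 7.81) and no peak in the other 5 lists, which does not check the deletion.

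**Figure D5:**
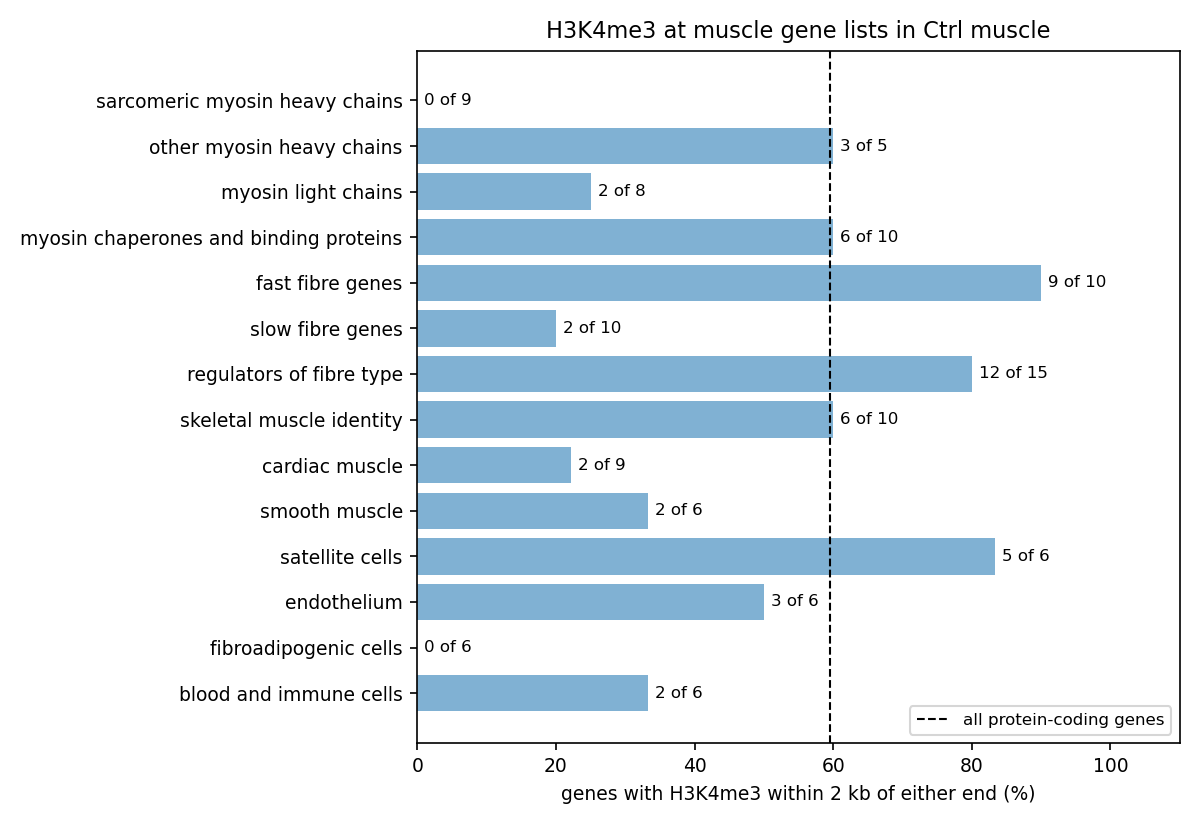
Share of each gene list marked by H3K4me3 less than 2 kb from a gene end in Ctrl muscle (horizontal axis, percent), with counts beside the bars and all protein-coding genes as the dashed line. Fast-fibre genes stand at 9 of 10 and the sarcomeric myosin heavy chains and fibroadipogenic markers at 0.

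By the length of the H3K4me3-free stretch around the gene's midpoint, the listed genes most like the members were Pdgfra, a receptor of fibroadipogenic cells (417.8 kb), Tbx5, a heart and forelimb factor (435.2 kb), and Dpt, a matrix gene (440.1 kb), out of 101 genes compared with the members' median of 401.8 kb, leaving out any whose midpoint lay in a peak. That median is set by the 6 genes of the cluster. Unlike those, Pdgfra had an H3K4me3 peak and Tbx5 a Ctrl H3K9me2 peak in the gene or within 2 kb, while Dpt had no peak of the 6 lists there. Likeness in this length says nothing of a shared state or function.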

How the data were processed

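Per the submitters' processing notes, reads were aligned to mm10 with Bowtie2 and peaks called with MACS2. The sources used here give neither versions nor whether an input served as control. The authors deposited 1 peak list a library. Each peak has the authors' fold, a ratio of summit to local background, a −log10 p and a −log10 q (which the authors deposited down to about q of 0.05), a score the authors derived from q, and a summit offset, not used here.

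Only the chromosomes 1 to 19, X and Y entered, with overlap counted from 1 bp. Summit fragments were solved as the whole number that, with the deposited fold, came nearest to the deposited −log10 p as a Poisson tail. The −log10 p so obtained lay within 0.1% of the deposited one for 99.01% to 99.97% of each list. The method recovered 2106 of 2106 simulated summits. These were made with the same formula, so their recovery checks the solving and not whether the deposited columns follow that formula. The RefSeq table (GRCm38.p6, the assembly of mm10) gave genes. Strand, starts and promoter letters came from the RefSeq promoter table, which matched 17492 of 21887 protein-coding genes, using the window nearest the gene's 5′ end. All 9 members matched, Myh7 with 2 windows. The 5 motifs of the report were searched on both strands.

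Groups follow the labels' titles. Nothing was tested, since no group but the 2 Ctrl inputs has more than 1 library. Members, lists and comparisons were chosen with earlier results of these data known. The rule named the members, the genes at the border peaks, the other Myh genes, up to 3 genes a list by fold and the 3 of likest stretch. Myl1, Unc45b, Smyd1, Sox6 and unmarked genes were named besides, after their values were seen. The software was matplotlib 3.10.9, scipy 1.17.1, pandas 2.3.3 and numpy 2.4.6 under Python 3.11.15.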

Additional observations from a re-analysis of the deposited data

How the results depend on the processing

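Of 36 alternatives, 25 left the value as it was and 11 moved it. The count of members with H3K4me3 was 0 within 1 and 2 kb of an end and at q of 1e-05 or less. It was 1, Myh7b, within 5 kb and also with the gene body counted. At q of 1e-05 or less the H3K4me3 peak in Myh7b and both CKO input peaks dropped out. The peaks in the loci then fell from 1 to 0 for H3K4me3 and from 2 to 0 for the CKO input, and the densities from 1.7 and 3.4 peaks per Mb to 0. The stretch holding the Myh7b midpoint grew from 36.29 to 98.73 kb. Counting gene bodies and 2 kb around them left 1 CKO input peak, in Myh7. Leaving out H3K4me3 peaks that overlap an input peak, 10418 of 16573 remaining, lengthened the stretches to 745.3 kb for the chromosome 11 cluster, 102.5 kb for the chromosome 14 pair and 110.9 kb for Myh7b, since border peaks were among those removed. H3K9me2 counts in the loci and at the members were 0 in both genotypes in the alternatives run. A stricter q, a narrower region or an input list left out (0 to 0 without Ctrl input 1 or 2) could not raise a count of 0, so this says nothing of stability. No paired analysis was possible because no result comes from a test, and each group but the Ctrl inputs has 1 library. The lowest listed H3K4me3 summit rose from 4 fragments at a local background under 1 to 30 at 10 or more, which limits what that list could show.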
